A study of Homo sapiens with 6 samples.

Results

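The genes described here are 46 genes of the interferon system: 35 interferon-stimulated effector genes and 11 sensors, receptors, kinases and transcription factors that detect foreign nucleic acid or relay the interferon signal. They were taken by name from a table of 33117 rows, and all 46 had a row. WPMY-1, an immortalised line of normal human prostate stromal cells, was transduced with lentivirus and selected with puromycin. The study compared 3 libraries from cells carrying the pLKO1 control plasmid (shCtrl) with 3 from cells carrying 1 short hairpin against CAVIN1, a coat protein of caveolae (shCAVIN1). The virus was made in HEK293T cells. The labels call the knockdown cells stable clones and do not say whether the replicates share a clone or transduction, so the p-values cover only library-to-library spread, which may be technical. They give no hairpin for the control plasmid and no interferon treatment, and both groups grew in the same serum-containing medium. Total RNA was sequenced, and the level of a gene is its FPKM, its fragments scaled by transcript length and by the mapped fragments of the library.

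Type I interferons bind a receptor made of IFNAR1 and IFNAR2, whose kinases TYK2 and JAK1 activate STAT2. With IRF9 it enters a complex that binds the interferon-stimulated response element in target promoters. Its targets include enzymes that degrade or mark viral RNA, GTPases that trap viral particles, the ubiquitin-like protein ISG15, and the sensors and factors of the same pathway, so the response can feed itself. Fibroblasts and other stromal cells keep many of these genes at a low level without added interferon.

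The response element can be seen as letters in the promoters. Its core was searched as GAAANNGAA on both strands, and also with a further A at the end, in RefSeq windows (GRCh38.p14) of 250 bases before to 50 bases after each start. Windows were found for 37 of the 46 members, under the name RIGI for DDX58. IFIT2, IFITM2, OAS2, OASL, MX2, USP18, TRIM22, IFNAR2 and IRF7 were not matched. The longer core was in 22 of 28 effectors (78.6%) and in 2 of 9 sensors, receptors and factors (IFIH1 and TLR3), against 4.38% of 27305 genes with a window. The shorter core, which every longer match contains, was in 23 of 28 effectors against 9.86% of all genes. Among effectors that rose in the comparison below, 11 of 15 had the longer core, and among the other effectors with a window 11 of 13. The element called GAS, searched as TTCNNNGAA, was in 11 of 37 members against 9.38% of all genes. Its matches can overlap those of the core.

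Shown are the 250 bases before the start, 5′ to 3′ on the gene's strand, for the 4 called effectors with the largest rise that have the longer core there, and for the factors STAT2 and IRF9, which have no core in their windows. Capitals mark either form of the core on either strand. Matches to GAS are not marked: they lie at positions -63 to -55 in IRF9 and -189 to -181 in MX1, counted from the start. The windows are MX1 at chr21:41431800-41432049 (plus strand, the last of its 3 listed starts), HERC5 at chr4:88456869-88457118 (plus), IFI6 at chr1:27672193-27672442 (minus), ISG15 at chr1:1013247-1013496 (plus), STAT2 at chr12:56360108-56360357 (minus) and IRF9 at chr14:24161015-24161264 (plus).
MX1: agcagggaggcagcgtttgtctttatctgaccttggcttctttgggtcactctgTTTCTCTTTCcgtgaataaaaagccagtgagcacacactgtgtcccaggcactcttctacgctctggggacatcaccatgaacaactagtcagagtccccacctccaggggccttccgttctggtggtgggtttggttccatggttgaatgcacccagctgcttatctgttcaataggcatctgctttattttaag
HERC5: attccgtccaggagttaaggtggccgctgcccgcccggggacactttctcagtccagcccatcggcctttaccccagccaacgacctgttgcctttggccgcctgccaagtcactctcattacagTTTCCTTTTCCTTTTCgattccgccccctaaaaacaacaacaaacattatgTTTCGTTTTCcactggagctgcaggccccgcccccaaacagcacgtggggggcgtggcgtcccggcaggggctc
IFI6: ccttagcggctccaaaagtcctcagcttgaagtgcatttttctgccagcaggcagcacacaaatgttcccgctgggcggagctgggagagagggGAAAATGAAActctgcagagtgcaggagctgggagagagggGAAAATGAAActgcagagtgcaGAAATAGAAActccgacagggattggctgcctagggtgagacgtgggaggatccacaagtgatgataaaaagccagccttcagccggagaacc
ISG15: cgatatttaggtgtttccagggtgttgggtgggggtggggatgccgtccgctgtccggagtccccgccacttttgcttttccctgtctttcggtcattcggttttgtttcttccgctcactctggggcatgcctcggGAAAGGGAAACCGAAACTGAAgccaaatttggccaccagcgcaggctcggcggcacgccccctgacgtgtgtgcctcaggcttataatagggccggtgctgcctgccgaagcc
STAT2: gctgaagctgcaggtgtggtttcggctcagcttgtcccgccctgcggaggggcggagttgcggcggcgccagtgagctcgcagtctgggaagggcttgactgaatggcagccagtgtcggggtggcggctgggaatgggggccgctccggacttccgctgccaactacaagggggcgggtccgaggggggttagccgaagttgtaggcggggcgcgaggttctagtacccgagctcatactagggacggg
IRF9: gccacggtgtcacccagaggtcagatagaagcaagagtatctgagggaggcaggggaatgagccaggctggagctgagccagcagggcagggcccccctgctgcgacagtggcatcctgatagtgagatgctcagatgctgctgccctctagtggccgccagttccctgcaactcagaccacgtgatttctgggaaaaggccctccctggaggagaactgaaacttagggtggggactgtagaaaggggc
HERC5 and IFI6 each carry 3 longer cores, and ISG15 carries 2 that overlap. In MX1 and HERC5 the cores lie on the opposite strand, so each begins and ends with TTTC. The first listed start of MX1 has the longer core from position 12 to 21 after that start, so it is not among the bases shown. A match is a description of letters and not a measured binding site.

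CAVIN1, listed under its older symbol PTRF, measured 329.6, 346.9 and 330.3 FPKM in shCtrl and 133.9, 138.8 and 150.2 FPKM in shCAVIN1, which is 42.0% of control (log2 -1.25, limma adjusted p = 2.88e-05). By exact permutation (two-sided) p was 0.1, and 3 against 3 cannot go lower. Across the 13941 genes tested, 55.5% passed an adjusted p of 0.05 by limma, 27.3% higher and 28.2% lower in shCAVIN1, and the groups did not overlap for 64.6%. The summed FPKM lay between 758837 and 1043840 per library, with 21.1% to 42.5% of it in the 10 most abundant rows, and the depth in reads is unknown. Of 10 stromal markers, 1 rose (S100A6) and 6 fell, among them COL1A2 to 11.4% of control, while VIM lay between 252.3 and 310.3 FPKM in every library. The 10 summed to between 1607 and 1723 FPKM in shCtrl and between 2360 and 2397 in shCAVIN1, where S100A6 alone went from a mean of 430.2 to 1512 FPKM. CD3E, KLK2, KLK3, TMPRSS2, LILRA4 and GZMB were listed at 0 in all 6, and PTPRC reached at most 0.148 FPKM. The 10 leukocyte markers summed to between 8.01 and 8.67 FPKM in shCtrl and between 10.3 and 10.5 in shCAVIN1, mostly CD68. The 5 plasmacytoid dendritic markers summed to 7.88 to 8.90 and 8.88 to 10.4 FPKM, nearly all TCF4, 8 epithelial markers to 0.599 to 0.678 and 0.451 to 0.615, and 6 endothelial markers to 0.439 to 0.885 and 1.18 to 1.34, mostly TEK in the latter. The part of these markers in the results below was not tested.

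Many effector genes rose, while the factors STAT2, IRF7 and IRF9 fell in FPKM as deposited. All of these factor calls were lost when each library was rescaled to an equal sum (TPM). Of the 35 effectors, 19 rose and 0 fell in shCAVIN1, against 27.3% of all tested genes higher, while 6 did not pass the test and 10 were below the mean of 0.5 FPKM needed for testing. By limma no effector was lower at an unadjusted p of 0.05 either. Of the 11 sensors, receptors and factors, all were tested and 5 rose and 4 fell, against 27.3% and 28.2% of all tested genes. In all, 28 of the 36 tested members passed, 24 higher and 4 lower, against 55.5% of all tested genes in either direction. Of these, 5 (MX1, HERC5, XAF1, IFIH1 and TLR3) reached the filter only through their shCAVIN1 level. Their mean had to be higher in shCAVIN1, so their calls add nothing. Leaving them aside, 16 effectors and 3 sensors, receptors and kinases were higher. Without the filter, 24 effectors were higher and 1, CMPK2, was lower, against 18.7% and 19% of 22580 genes. The median log2 fold change in that fit, over log2(FPKM + 0.5), was 0.46 for the 35 effectors, -0.05 for the 11 others and -0.01 for all genes. The groups did not overlap for 39 of the 46 members, 31 higher and 8 lower, against 64.6% of tested genes. The 46 include the 10 members below the filter and the 64.6% does not, so these are unlike sets. No share by direction was taken over all genes.

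**Figure D1:**
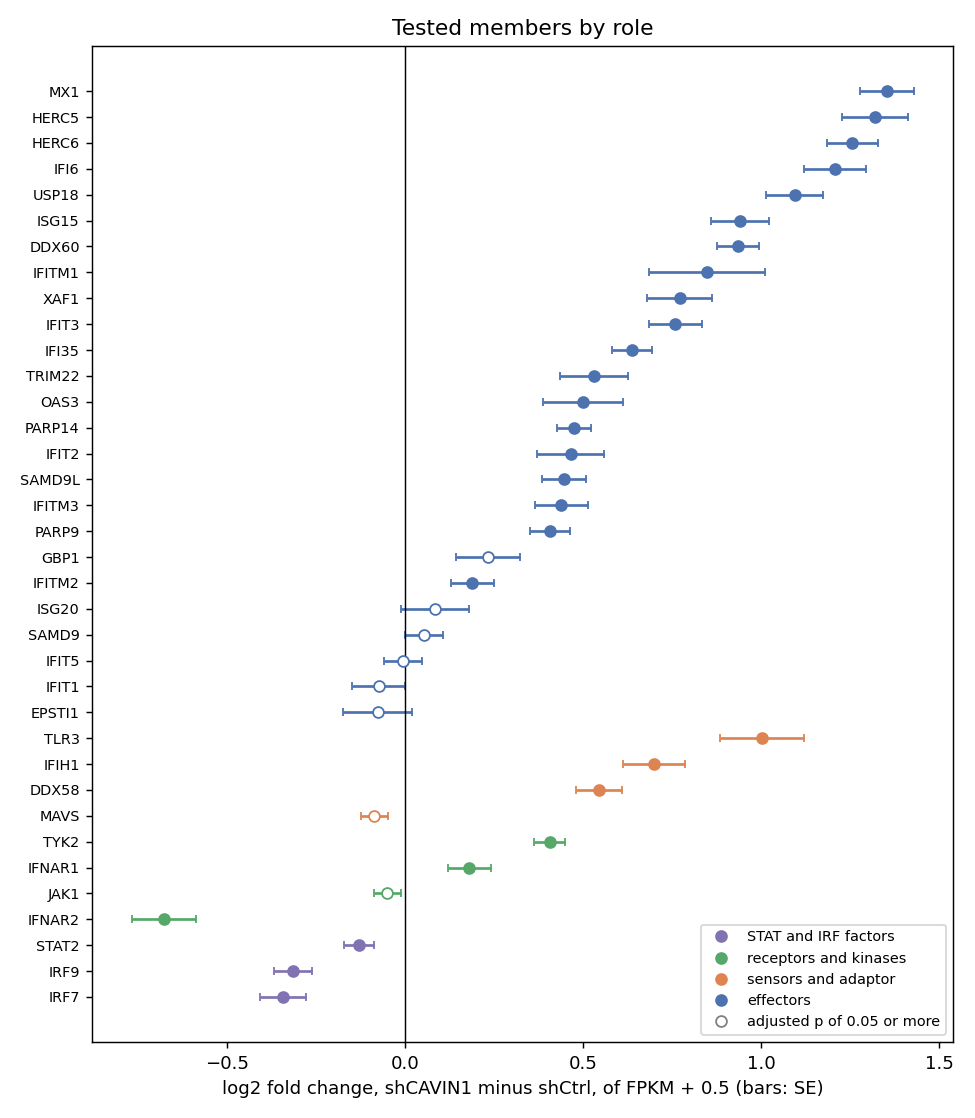
Log2 fold change (shCAVIN1 minus shCtrl, of FPKM + 0.5) of the 36 tested members by role, with bars for the limma SE and open points for an adjusted p of 0.05 or more. Effectors run from -0.08 (EPSTI1) to 1.35 (MX1), and the 3 STAT and IRF factors all lie below 0.

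Summed over the 35 effectors, the level was 361, 398 and 355 FPKM in shCtrl replicates 1 to 3 and 554, 532 and 533 FPKM in shCAVIN1 replicates 1 to 3. IFITM3 made up about as much of each sum as all the others together. Without it the sums were 179, 196 and 185 against 294, 284 and 293 FPKM, still with no overlap. The 11 sensors, receptors and factors summed to between 124.9 and 126.9 FPKM in shCtrl and between 123.9 and 125.6 in shCAVIN1, and there the groups overlapped. In bulk libraries a change in RNA per cell and a change in the share of cells that express a gene cannot be told apart.

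Of the ISG15 system, ISG15, HERC6 and USP18 rose, and HERC5 reached the filter only through its shCAVIN1 level. ISG15, the ubiquitin-like protein that is joined to other proteins, stood at 18.6, 17.7 and 18.9 FPKM in shCtrl and at 31.9, 36.1 and 39.5 FPKM in shCAVIN1. That is 1.95-fold by the means (log2 0.94, SE 0.0811, limma adjusted p = 0.000221), with shCAVIN1 more spread than shCtrl and no overlap. HERC5, the main ligase that attaches ISG15, lies on chromosome 4 at 88457117 to 88506163 and went from 0.227, 0.280 and 0.284 FPKM to 1.46, 1.47 and 1.28 FPKM, 5.34-fold by the means (log2 1.32). Its relative HERC6, the next gene on the same strand, rose from 0.587, 0.550 and 0.552 FPKM to 2.14, 2.01 and 1.97 FPKM, 3.62-fold. HERC6 had no core in its window. USP18, the protease that removes ISG15 and also restrains the receptor, rose from 0.967, 1.21 and 1.03 FPKM to 2.95, 2.72 and 2.86 FPKM, 2.66-fold (adjusted p = 0.000132). Of its longest transcript 23.4% is shared in stretches of 50 bases with other genes, nearly all with USP41, whose own row reached at most 0.0520 FPKM.

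IFI6, a mitochondrial and endoplasmic reticulum protein with antiviral effects, rose and had the largest fold change of the members above 10 FPKM in shCtrl. It stood at 28.9, 36.2 and 33.9 FPKM in shCtrl and at 78.4, 73.5 and 77.9 FPKM in shCAVIN1, 2.32-fold (log2 1.21, SE 0.0868, limma adjusted p = 0.00012). Its family member IFI27, which was below the filter, went the other way in mean, from 0.531 ± 0.188 to 0.307 ± 0.0258 FPKM (SD, n = 3), with overlapping groups. IFI44 and IFI44L, adjacent genes on chromosome 1, also parted. IFI44 stood at 0.127 ± 0.0733 FPKM in shCtrl and at 0.829, 0.804 and 0.796 FPKM in shCAVIN1, whereas IFI44L was under 0.1 FPKM in every library and overlapped.

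**Figure D2:**
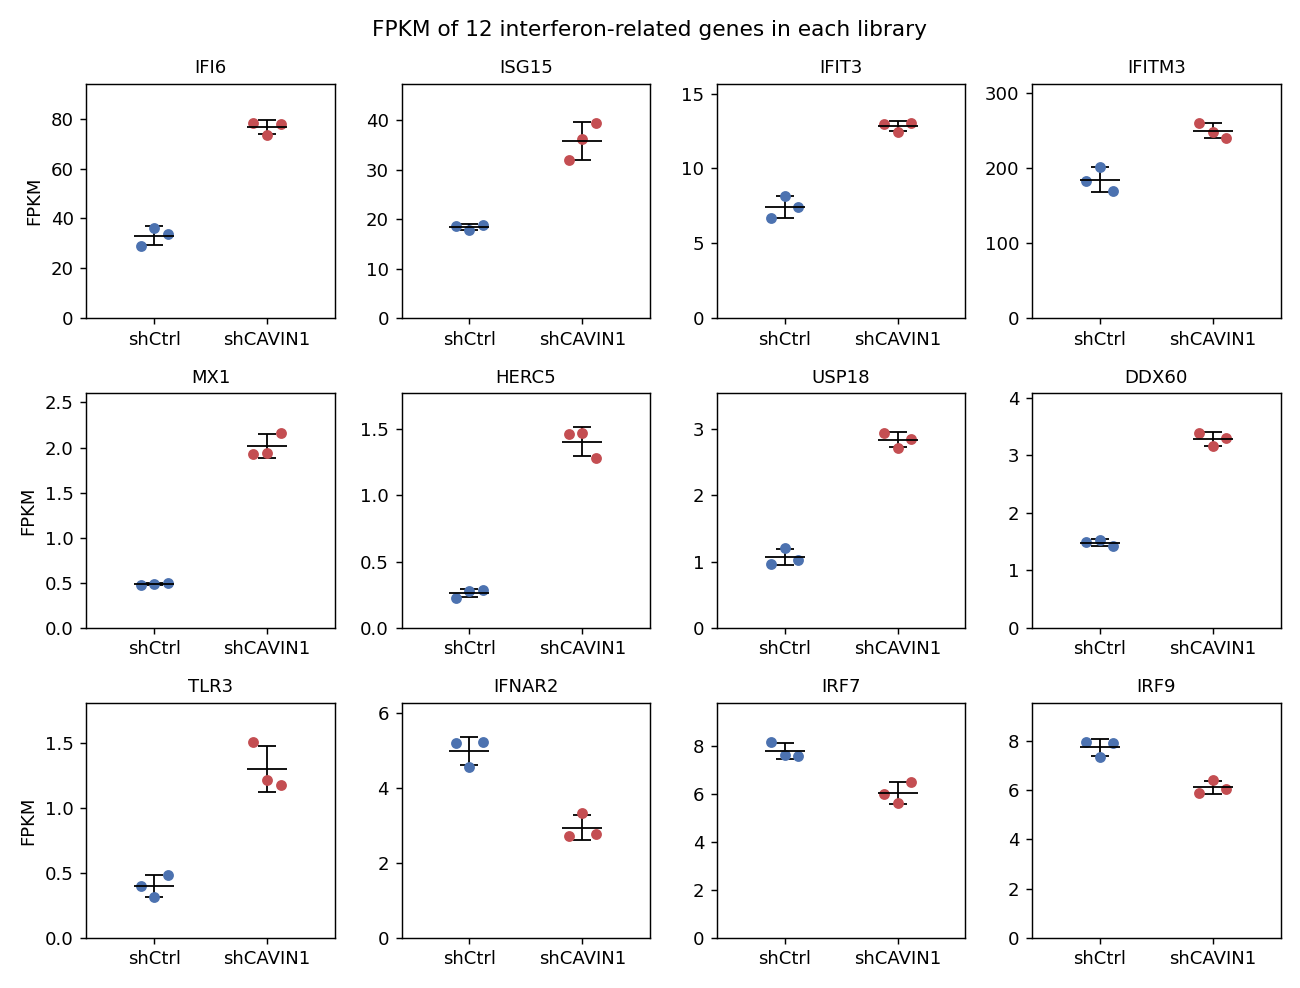
FPKM of 12 members in each of 3 shCtrl and 3 shCAVIN1 libraries (points), with the mean and SD as bars and each axis starting at 0. The shCAVIN1 libraries are higher for the first 9 genes and lower for IFNAR2, IRF7 and IRF9, with no overlap in any panel. The 12 are a selection that leaves out the 7 of 46 members with overlapping groups. Over all tested genes 64.6% had no overlap. MX1, HERC5 and TLR3 reached the filter only through their shCAVIN1 level.

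Among the GTPases, MX1, which traps viral nucleocapsids, went from 0.470, 0.486 and 0.494 FPKM to 1.929, 1.945 and 2.167 FPKM. That is 4.17-fold by the means (log2 1.35), without overlap, at a level that reached the filter only through shCAVIN1. With a pseudocount of 0.1 the log2 fold change was 1.86 for MX1 and 2.05 for HERC5. MX2, its neighbour on chromosome 21, was at 0.0452 ± 0.0148 and 0.122 ± 0.0213 FPKM and below the filter, without overlap. GBP1, a guanylate-binding protein that coats intracellular microbes, did not pass, at 7.53 ± 1.03 and 8.89 ± 0.125 FPKM (log2 0.23, adjusted p = 0.0706). Its neighbours within 5 Mb had a median log2 fold change of 0.23 as well.

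The IFIT family, which binds foreign RNA ends, split within a single gene cluster on chromosome 10. IFIT3 rose from 6.66, 8.13 and 7.42 FPKM to 13.0, 12.4 and 13.1 FPKM, 1.73-fold (log2 0.76, SE 0.0738, limma adjusted p = 0.00035). IFIT2 rose from 3.36 ± 0.419 to 4.82 ± 0.346 FPKM (log2 0.46, adjusted p = 0.00691). IFIT1, commonly used as a marker of the response, was at 3.90, 4.77 and 4.26 FPKM in shCtrl and at 4.06, 3.96 and 4.15 in shCAVIN1. IFIT5 was at 9.99 ± 0.577 and 9.94 ± 0.158 FPKM. For both the groups overlapped (adjusted p = 0.432 and 0.931), although each has the longer core in its window. IFIT2 shares 8.4% of its longest transcript with an overlapping annotated gene on the same strand.

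The IFITM proteins stop viruses at endosomal membranes, and their genes lie side by side on chromosome 11. IFITM3 was the most abundant member, at 182, 201.6 and 169.3 FPKM in shCtrl and at 260.2, 248.4 and 240.1 FPKM in shCAVIN1, 1.35-fold (log2 0.44, SE 0.0753, limma adjusted p = 0.00344). IFITM1 rose from 0.896 ± 0.304 to 1.98 ± 0.212 FPKM (adjusted p = 0.00561). IFITM2 moved least, from 49.4 ± 2.25 to 56.4 ± 3.53 FPKM (log2 0.19, adjusted p = 0.0382), and its call was lost in 9 of 17 alternative settings. IFITM1 shares 42.3% of its longest transcript with other genes, IFITM3 20.3% and IFITM2 15.8%, mostly with each other, so the split between the 3 is uncertain. An annotated gene on the opposite strand overlaps 23.7% of IFITM3 exons.

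OAS1, OAS2 and OAS3 make the second messenger that activates RNase L, and OASL is a relative without that activity. OAS3 rose from 2.76, 2.02 and 2.53 FPKM to 4.01, 3.55 and 3.36 FPKM (log2 0.50, SE 0.114, limma adjusted p = 0.0107). The other members of the family were below the filter and higher in every shCAVIN1 library than in any shCtrl library. OAS1 went from 0.0511 ± 0.00871 to 0.282 ± 0.0987 FPKM, OAS2 from 0.0296 ± 0.0146 to 0.120 ± 0.0362, and OASL, listed at 0 in shCtrl replicate 2, from at most 0.0318 to 0.179, 0.301 and 0.259 FPKM.

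The remaining called effectors, outside these families, also rose. DDX60, a helicase that aids RNA sensing, went from 1.49, 1.53 and 1.42 FPKM to 3.40, 3.16 and 3.30 FPKM, 2.22-fold (log2 0.93, limma adjusted p = 8.08e-05). XAF1, a proapoptotic protein that reached the filter only through shCAVIN1, went from 0.308 ± 0.0273 to 0.880 ± 0.0646 FPKM, and 69.9% of its annotated exons are overlapped by PRAL on the opposite strand, and the strand setting of the counting is not given in the sources used here. IFI35 rose 1.59-fold to 11.6 ± 0.648 FPKM and TRIM22, an antiviral ubiquitin ligase, 1.49-fold to 6.03 ± 0.223 FPKM. The mono-ADP-ribosylation genes PARP14 and PARP9 rose 1.40-fold and 1.35-fold (adjusted p = 0.00043 and 0.00134). SAMD9L rose 1.45-fold (adjusted p = 0.00136), and its neighbour SAMD9, a related translation inhibitor, did not pass (adjusted p = 0.429, 6.98 ± 0.381 and 7.26 ± 0.210 FPKM). EPSTI1 and the exonuclease ISG20 did not pass, with overlapping groups. BST2, the tether that holds budding virions, was below the filter at 0.185 ± 0.0880 and 0.332 ± 0.0440 FPKM, without overlap.

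CMPK2 and RSAD2 were the 2 effectors lower in every shCAVIN1 library than in any shCtrl library. Without the filter CMPK2 passed (limma adjusted p = 0.000178) and RSAD2 did not (0.0647). They are adjacent genes on chromosome 2 whose start regions overlap, and they encode a mitochondrial nucleotide kinase and viperin, which makes a chain-terminating nucleotide. CMPK2 stood at 0.195, 0.183 and 0.222 FPKM in shCtrl and was listed at 0 in all 3 shCAVIN1 libraries. RSAD2 stood at 0.0340, 0.0196 and 0.0275 FPKM in shCtrl, was listed at 0 in shCAVIN1 replicate 1 and was at 0.00887 and 0.00704 FPKM in the others. Both are below the filter, and a value listed at 0 can be a failed estimate. The next coding gene, RNF144A, named here after its values were seen, went from 0.979, 0.709 and 0.867 FPKM to values of 0, 0.00720 and 0.00569 FPKM. Beyond it ID2 kept 68.4% of its control level, and the median log2 fold change of the 29 tested genes within 5 Mb was 0.12.

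Among the sensors of double-stranded RNA, DDX58 rose, and TLR3 and IFIH1 reached the filter only through their shCAVIN1 level. DDX58, the helicase RIG-I that senses RNA ends, went from 1.28, 1.37 and 1.40 FPKM to 2.11, 2.26 and 2.23 FPKM (log2 0.54, SE 0.0649, limma adjusted p = 0.00079). Its neighbours within 5 Mb had a median log2 fold change of 0.29. TLR3, the endosomal receptor on chromosome 4 (186069152 to 186088069), went from 0.400, 0.315 and 0.482 FPKM to 1.51, 1.22 and 1.18 FPKM, 3.26-fold. IFIH1, the helicase MDA-5 that senses long duplexes, went from 0.432, 0.503 and 0.492 FPKM to 1.15, 1.11 and 0.995 FPKM, 2.28-fold. The groups did not overlap for any of the 3. MAVS, the mitochondrial adaptor that both helicases signal through, was far more abundant and did not pass, at 18.4, 17.4 and 17.9 FPKM against 16.9, 16.7 and 16.8 (limma adjusted p = 0.0978). Its groups did not overlap, with shCAVIN1 lower.

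The receptor chains moved apart. IFNAR2, the chain that binds interferon tightly, lies on chromosome 21 at 33229901 to 33265675 and fell from 5.19, 4.57 and 5.22 FPKM to 2.72, 3.33 and 2.77 FPKM, to 58.9% of control (log2 -0.68, SE 0.0898, limma adjusted p = 0.0012). IFNAR1, from the same chromosome region, had 8.06, 7.32 and 8.23 FPKM in shCtrl and 9.36, 9.04 and 8.54 FPKM in shCAVIN1 (log2 0.18, adjusted p = 0.045), and lost its call in 11 of 17 alternative settings. IFNAR2 shares 43.2% of its longest transcript with other genes, almost all with an overlapping annotated gene on its strand, and 41.4% of its exons are overlapped by IL10RB-DT on the opposite strand. TYK2, the kinase bound to IFNAR1, rose from 14.5, 14.4 and 15.1 FPKM to 18.9, 20.2 and 19.7 FPKM (log2 0.41, adjusted p = 0.000502). JAK1, the kinase bound to IFNAR2, did not pass, at 48.1 ± 1.41 and 46.5 ± 0.325 FPKM (adjusted p = 0.309).

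All 3 STAT and IRF factors fell. IRF9, the DNA-binding part of the complex, went from 7.95, 7.35 and 7.92 FPKM to 5.90, 6.42 and 6.05 FPKM, to 79.1% of control (log2 -0.32, SE 0.0540, limma adjusted p = 0.00344). IRF7, the factor that amplifies interferon production, went from 8.13, 7.62 and 7.56 FPKM to 6.00, 5.59 and 6.50 FPKM, to 77.6% of control (log2 -0.34, SE 0.0653, adjusted p = 0.00529). STAT2 changed least, from 14.97, 14.35 and 14.49 FPKM to 13.6, 13.6 and 12.8 FPKM (log2 -0.13, SE 0.0426, adjusted p = 0.0414), and its call was lost in 12 of 17 alternative settings. None of the 3 had overlapping groups. Rescaling to TPM ended all 3 calls and shifted the median over tested genes from -0.02 to 0.09: IRF9 then stood at -0.20 (adjusted p = 0.319), IRF7 at -0.23 (0.294) and STAT2 at -0.01 (0.967). Every 50-base stretch of the longest IRF9 transcript is also in another annotated gene on the same strand, so its value is uncertain.

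**Figure D3:**
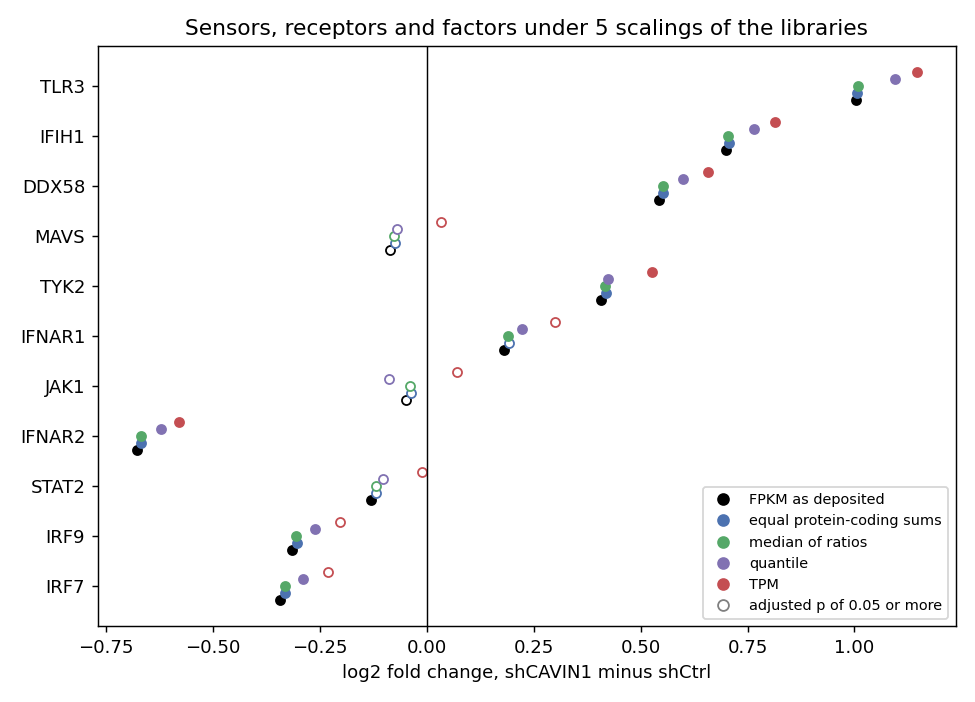
Log2 fold change (shCAVIN1 minus shCtrl) of the 11 sensors, receptors, kinases and factors under 5 scalings of the libraries, with open points for an adjusted p of 0.05 or more. DDX58 and TYK2 stay higher and IFNAR2 lower past the threshold under each scaling. IRF7 and IRF9 lose their calls under TPM, STAT2 under all 4 rescalings, and IFNAR1 under TPM and equal protein-coding sums.

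Neighbouring genes moved with some members. The median log2 fold change of the tested genes within 5 Mb on either side ran from -0.55 at TRIM22 to 0.36 at ISG15, and it exceeded 0.3 in size for 9 of the 36 tested members. At IRF7, on chromosome 11 at 612553 to 615999, the 58 neighbours had a median of -0.35, so the member's own -0.34 left 0.01. The IFITM genes and TRIM22 lie on the same arm, and they rose where their neighbours were lower: IFITM3 stood 0.79 and TRIM22 1.08 above the neighbour median. STAT2 differed from its neighbours by -0.03, IRF9 by -0.28 and IFNAR2 by -0.48. Subtracting the neighbour median left 0.25 of 0.54 for DDX58, 0.18 of 0.41 for TYK2, 0.58 of 0.94 for ISG15, 0.29 of 0.47 for PARP14 and 0.89 of 1.21 for IFI6. Of the 28 called members, 27 kept their direction after the neighbour median was subtracted, with IRF7 as the exception. The 27 include MX1, HERC5, XAF1, IFIH1 and TLR3, which reached the filter only through shCAVIN1 and add nothing to that count. The part of chromosomal position in these changes was not tested.

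**Figure D4:**
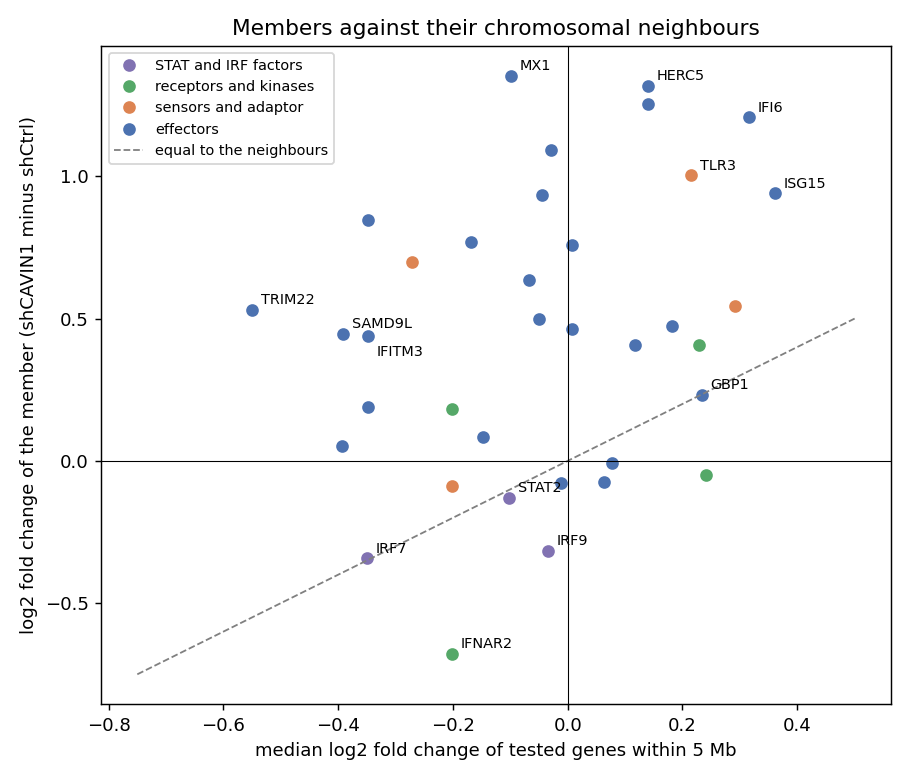
Log2 fold change of each of the 36 tested members (vertical) against the median log2 fold change of the tested genes within 5 Mb (horizontal), coloured by role, with a dashed line where both are equal. IRF7, STAT2 and GBP1 lie close to the line, and MX1, HERC5 and IFI6 lie far above it.

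Interferons themselves were close to or at 0. Of 21 ligand genes, 15 were listed at 0 in all 6 libraries and none exceeded 0.196 FPKM, the level of IFNE in shCtrl replicate 1. IFNB1, the interferon that fibroblasts make on infection, was at 0.0376 FPKM in shCAVIN1 replicate 2 and listed at 0 in the other 5. Among 15 other receptors and signalling genes, 14 were tested, and 2 rose and 3 fell. Both are smaller shares than the 27.3% higher and 28.2% lower of all tested genes. IRF1, which responds to interferon gamma, was at 7.99 ± 0.0851 and 8.02 ± 0.161 FPKM, and IRF3, the factor activated by the sensors, was at 19.6 ± 0.681 and 17.7 ± 1.31 FPKM (limma adjusted p = 0.0997). The interferon gamma receptor chains IFNGR1 and IFNGR2 did not pass either (adjusted p = 0.217 and 0.236). The 3 that fell were the feedback inhibitors SOCS1 (to 67.4% of control) and SOCS3 (81.2%) and the STAT inhibitor PIAS1 (75.1%), while IRF2, an antagonist of IRF1, rose 1.41-fold (adjusted p = 0.000407) and STAT3 1.10-fold (0.0424). STAT3 is named after its values were seen. Under TPM the calls of SOCS1, SOCS3 and PIAS1 were lost (limma adjusted p = 0.209, 0.528 and 0.217).

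In nucleic acid sensing beyond the members, 12 of 15 genes were tested, and 8 rose and 1 fell, against 27.3% and 28.2% of all tested genes. CGAS, the cytosolic DNA sensor listed as MB21D1, rose from 8.11, 8.91 and 7.80 FPKM to 13.2, 11.8 and 13.2 FPKM (log2 0.59, limma adjusted p = 0.000783). Its downstream adaptor STING1, listed as TMEM173, rose from 4.39, 5.26 and 5.09 FPKM to 7.79, 8.61 and 7.95 FPKM (log2 0.67, adjusted p = 0.000681). TRAF3, an adaptor downstream of the RNA sensors, rose 1.33-fold (log2 0.40), and its neighbours within 5 Mb had a median of 0.34. ZNFX1, a helicase that senses RNA, fell to 68.5% of control (log2 -0.53), with a neighbour median of -0.35. The ZNFX1 call was lost under TPM (limma adjusted p = 0.0659).

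Of 51 other interferon-stimulated genes, 41 were tested, and 20 rose and 10 fell, against 27.3% and 28.2% of all tested genes. Of all 102 other pathway genes, 67 were tested, and 30 rose and 14 fell, against the same shares of all tested genes. Under TPM 23 of these 67 were higher and 3 lower, against 2199 higher and 1213 lower of all 13941 tested genes. The 4 with the lowest adjusted p were the secreted glycoprotein LGALS3BP (23.5 ± 1.199 to 67.4 ± 4.69 FPKM, log2 1.498, limma adjusted p = 2.34e-05), the apolipoproteins APOL1 (2.55-fold) and APOL6 (2.09-fold), and UBA7, the activating enzyme for ISG15 (1.68-fold, adjusted p = 6.50e-05). Among the 10 that fell, named after their values were seen, TRIM5, TRIM21 and TRIM34 lie on chromosome 11 with TRIM22, at log2 -0.59, -0.64 and -0.67. Their neighbours within 5 Mb had median log2 fold changes of -0.54, -0.48 and -0.54. TRIM22 itself was at 0.53, with a neighbour median of -0.55. The other genes that fell did not all follow their neighbours. LY6E and IFI30 stood at -0.51 and -0.60, with neighbour medians of 0.17 and 0.27. SLFN5 and SLFN11 stood at -0.66 and -0.59, with a neighbour median of -0.15 for each. PML, SP100 and SP140L stood at -0.45, -0.20 and -0.23, with neighbour medians of -0.18, -0.38 and -0.38. UBE2L6, the enzyme that conjugates ISG15, also named after its values were seen, did not pass, at 36.5 ± 2.68 and 38.2 ± 1.78 FPKM (limma adjusted p = 0.423), with overlapping groups.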

How the data were processed

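Total RNA of 6 WPMY-1 libraries, 3 per group, was sequenced after stranded library preparation, per the labels' protocols. The authors deposited 1 table of FPKM values, normalised to transcript length and mapped fragments. Per the submitters' processing notes, GRCh38, CASAVA, bcl2fastq 2.17.1.14, TopHat and TopHat2 (given as 2.2.5) were used. How FPKM was quantified, with which annotation and strand setting, is not given in the sources used here. Because these are no counts, depth is unknown and no counting interval is given. FPKM divides by all mapped fragments, so very abundant RNAs can lower the other values of a library.

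Genes with a mean of at least 0.5 FPKM over the 6 libraries were tested by limma 3.58.1 (R 4.3.3) after the transform log2(FPKM + 0.5) (group as the only term, trended variances, Benjamini-Hochberg over all 13941 tested genes, threshold 0.05), after the code was tested on simulated data. Log2 fold changes are on that scale and understate changes of low genes. Folds and percentages of control are ratios of mean FPKM. Errors are SD over 3 libraries or limma SE. Positions and exon overlaps come from GENCODE 29 (GRCh38), promoter windows from RefSeq. Shared sequence is the share of 50-base stretches of a member's longest GENCODE transcript found in transcripts of other genes. All 46 members may be named, with up to 4 genes of lowest adjusted p from each other list and 8 fixed genes, of which the text gives a part. Members and lists were chosen with earlier results of these data known. Alternatives covered the pseudocount, filter, scaling, variance model, replicate block, neighbouring genes and each library left out.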

Additional observations from a re-analysis of the deposited data

How the results depend on the processing

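Of the 28 called members, 22 kept direction and call in every alternative test they entered (16 or 17 of 17). These 22 include MX1, HERC5, XAF1, IFIH1 and TLR3, which reached the filter only through their shCAVIN1 level. For those genes the kept calls add nothing. IFITM2, IFNAR1 and STAT2 lost their calls in 9, 11 and 12 of these, and IFITM3 (limma adjusted p = 0.0758), IRF7 and IRF9 under TPM alone. GBP1 passed in 4 settings and MAVS in 1 (without shCtrl replicate 2, limma adjusted p = 0.0351). Under TPM 22 members passed (21 higher, 1 lower), with 5 of the sensors, receptors and factors, 26 of the other pathway genes (23 higher, 3 lower, against 30 and 14) and 3412 of all genes, 64.5% of them higher against 49.2% in FPKM. TPM turned IFIT1 (0.0344), IFIT5 (0.111), EPSTI1 (0.00803), MAVS (0.0327), JAK1 (0.0719), IFNGR1 (0.000653) and IFNGR2 (0.0118) positive, none called. IFIT5 was also positive with equal protein-coding sums (0.00552), median of ratios (0.00424) and quantile normalization (0.0313). Subtracting the neighbour median turned IRF7 to 0.00728. The causes were not tested.

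Leaving out each library in turn gave 25 to 30 called members, 18 to 21 effectors, 7 to 9 sensors, receptors and factors, 37 to 45 other pathway genes and 6227 to 8511 genes in all. CAVIN1 then lay between -1.296 and -1.214, IFIT5 between -0.0511 and 0.026 and IRF1 between -0.00822 and 0.0188. Same-numbered libraries correlated in their deviations from the group means at 0.0936, 0.0714 and -0.0282. Libraries with different numbers correlated at between -0.146 and 0.0772. These values, from 3 libraries per group, cannot settle whether the numbers pair the libraries. With the replicate number as a block, 25 members (22 higher, 3 lower) and 7167 genes passed. The 10 members below the filter are limited by their low level. The count-based alternative was not run because the values are not counts.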
